A study of Mus musculus with 3 samples.

Results

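Chromatin at the autosomal GATA factor genes of mouse primordial germ cells, from which eggs and sperm descend, was described from chromatin immunoprecipitation and sequencing (ChIP-seq) of a pair of histone modifications. The 5 genes were Gata2, Gata3, Gata4, Gata5 and Gata6. Their called regions were selected by position, as every H3K4me3 or H3K27me3 region overlapping 1 fixed window per gene on mouse build mm9. The windows lay on chromosome 6 from 88.13 to 88.17 Mb for Gata2, on chromosome 2 from 9.76 to 9.82 Mb for Gata3 and from 180.05 to 180.08 Mb for Gata5, on chromosome 14 from 63.8 to 63.9 Mb for Gata4, and on chromosome 18 from 11.04 to 11.1 Mb for Gata6. They held 22 of the 47928 called H3K4me3 regions and 14 of the 18731 called H3K27me3 regions.

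The cells came from embryos of an Oct4:GFP transgenic line on the B6 background crossed to Swiss-Webster females. At E11.5, mid-gestation, the gonadal regions of several embryos were pooled and dissociated, and GFP-positive cells were sorted. The H3K4me3 sample, the H3K27me3 sample and an input control (not analysed here) were made from the same 2 aliquots of 104000 and 97000 cells. Each mark has 1 list of regions standing for 2 replicates, so no value below has a replicate error, no test between conditions was possible, and comparisons are descriptions. The lists give positions in steps of 200 bp without read counts, so the depth behind a region is unknown. The sort rests on the Oct4 reporter alone. Regions were not assigned to marker genes, so the cell type was not checked against its markers. A mark carried by few cells of the pool cannot be told apart from one carried by many. The marks were profiled as separate samples, so overlapping regions do not show that both marks sat in the same cells. Sequence said below to carry both marks is sequence where called regions of the 2 lists overlap.

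GATA factors are zinc finger transcription factors named after the DNA sequence they bind. Gata2 and Gata3 belong to the branch of the family best known from blood and immune cells, whereas Gata4, Gata5 and Gata6 belong to the branch best known from heart, gut and endoderm. H3K27me3 is deposited by Polycomb complexes at silent developmental genes, and H3K4me3 marks promoters, above all CpG-rich ones. Their joint presence, called bivalent chromatin, is common at genes for lineage regulators in embryonic cells. In the early gonad Gata4 is known as a factor of the somatic cells that surround the germ cells.

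Promoter sequence from RefSeq was available for Gata2, Gata3 and Gata5, as 4 transcription start sites, and is shown because CpG-rich promoters are the usual sites of H3K4me3 and of bivalent chromatin. Each line gives the 250 bases before a start site, 5′ to 3′ on the strand of the gene, with every CpG in capitals. The positions are those of build GRCm38.p6 and cannot be set against the mm9 positions of the called regions.
Gata2, first start, chr6:88193641-88193890 (+ strand): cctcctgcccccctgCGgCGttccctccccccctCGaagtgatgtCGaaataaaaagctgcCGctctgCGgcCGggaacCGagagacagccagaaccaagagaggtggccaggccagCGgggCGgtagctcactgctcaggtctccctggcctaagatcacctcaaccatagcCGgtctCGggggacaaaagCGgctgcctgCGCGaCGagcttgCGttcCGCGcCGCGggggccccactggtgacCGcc
Gata2, second start, chr6:88198414-88198663 (+ strand): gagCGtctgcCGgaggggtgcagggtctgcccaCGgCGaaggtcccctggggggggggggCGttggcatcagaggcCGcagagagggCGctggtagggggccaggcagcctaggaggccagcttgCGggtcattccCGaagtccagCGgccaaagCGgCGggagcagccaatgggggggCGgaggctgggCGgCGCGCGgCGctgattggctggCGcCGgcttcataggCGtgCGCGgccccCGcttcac
Gata3, chr2:9878601-9878850 (- strand): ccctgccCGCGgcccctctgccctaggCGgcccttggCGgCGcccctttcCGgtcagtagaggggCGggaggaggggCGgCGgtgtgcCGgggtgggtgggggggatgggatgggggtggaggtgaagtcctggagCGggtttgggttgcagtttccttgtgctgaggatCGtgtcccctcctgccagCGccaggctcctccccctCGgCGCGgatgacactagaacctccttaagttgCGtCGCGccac
Gata5, chr2:180334680-180334929 (- strand): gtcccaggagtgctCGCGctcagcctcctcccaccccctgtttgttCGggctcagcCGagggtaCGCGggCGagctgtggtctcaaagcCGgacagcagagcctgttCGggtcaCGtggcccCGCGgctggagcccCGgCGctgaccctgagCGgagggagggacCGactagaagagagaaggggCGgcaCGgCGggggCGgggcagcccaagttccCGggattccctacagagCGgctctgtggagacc
These 4 sequences were rich in CpG. They held 22 and 24 CpG at the first and second start of Gata2, 19 at Gata3 and 22 at Gata5, against a median of 6 (quartiles 2 and 16) over 32851 RefSeq promoters of the same length. As many CpG or more were found in 14.8% of all promoters for the first Gata2 start and for Gata5, in 12.0% for the second Gata2 start and in 19.7% for Gata3. Their GC content was 67.2%, 74.0%, 70.0% and 70.0% in the order printed, against a median of 52.4%. The letters GATA, searched on both strands, occurred in none of the 4, and in 53.6% of all promoters. This comparison was not matched for GC content, which was higher in the 4 than in the median promoter.

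Both marks were called and overlapped at all 5 GATA loci. Sharing 1 bp was enough for an overlap. In adjoining autosomal windows of the same widths the marks overlapped in 7.23 to 18.4%, and in 23.3 to 33.9% of those holding any H3K4me3. Of the 22 H3K4me3 regions in the windows, 18 (81.8%) overlapped H3K27me3, where 18.8% of all H3K4me3 regions did (95% Wilson interval 18.4 to 19.1%, counting error only). With the windows widened by 50 kb on each side, 20 of 38 (52.6%) did, so the share depends on where the windows end. Of the 14 H3K27me3 regions, 7 (50.0%) overlapped H3K4me3, against 37.5% of the whole list (36.8 to 38.2%). Regions of 1 window are neighbours and not independent, and the windows were set around the genes. By length, 68.4% of the H3K4me3 sequence in the windows also carried H3K27me3, compared with 17.4% over the whole list, and 22.8% of the H3K27me3 sequence also carried H3K4me3, compared with 13.8%. The median width was 4800 bp for the H3K27me3 regions of the windows and 1800 bp for all, and 1000 bp for the H3K4me3 regions of the windows and 800 bp for all.

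**Figure D1:**
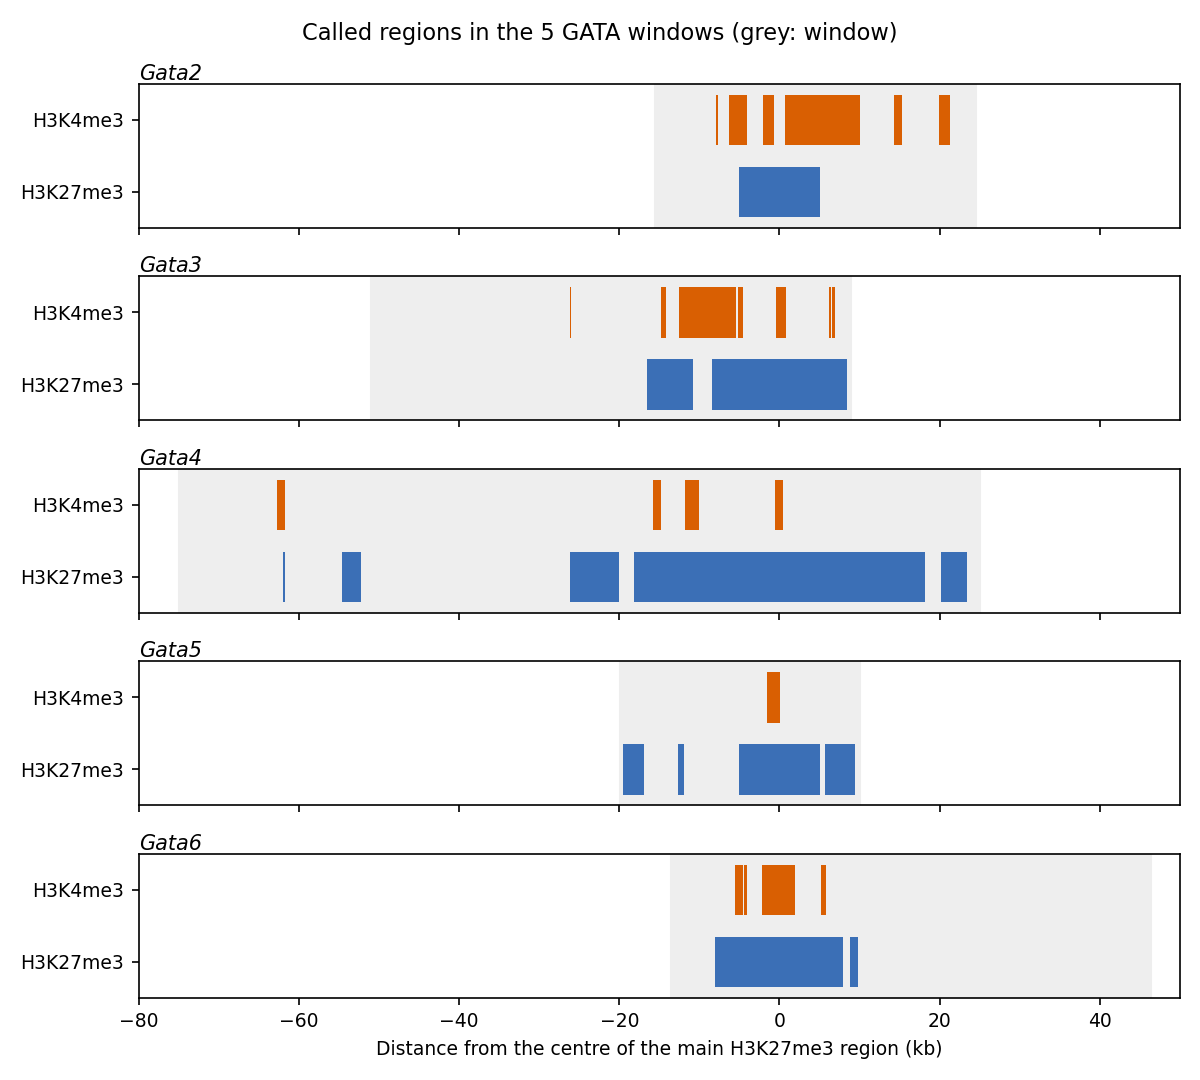
Called H3K4me3 (orange) and H3K27me3 (blue) regions at each GATA locus, against the distance in kb from the centre of the main H3K27me3 region, with the window in grey. At Gata5 and Gata6 every H3K4me3 region lies within H3K27me3, whereas at Gata2 a 9.4-kb H3K4me3 region runs 5.0 kb past the end of H3K27me3.

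Each locus had 1 main H3K27me3 region, the widest in its window and also the one sharing most sequence with H3K4me3. It measured 10.2 kb at Gata2, 16.8 kb at Gata3, 36.4 kb at Gata4, 10.2 kb at Gata5 and 16.0 kb at Gata6. All 5 were wide, meaning over 6 kb. Since each was taken as the widest of its window, the comparison with the whole list is over all regions of the windows: 6 of the 14 (42.9%) were over 6 kb, the sixth being a 6.2-kb region at Gata4 without H3K4me3, against 13.1% of all H3K27me3 regions. H3K4me3 regions overlapping such a region are called islands here, and the main regions held 3, 5, 3, 1 and 4 islands in the same order of genes. Gata2, Gata3, Gata4 and Gata6 thus fell in the class of wide regions with 3 or more islands, to which 2.09% of all H3K27me3 regions and 16.0% of the 2450 wide ones belonged. Of the 14 H3K27me3 regions in the windows, 4 (28.6%) were in this class. At least 1 island was present in 68.0% of all wide regions. Gata5 fell in the class of wide regions with 1 to 2 islands, which held 6.81% of all and 52.0% of the wide ones. Among the 1078 H3K27me3 regions between the narrowest and the widest of these 5 (10.2 to 36.4 kb), 76.1% overlapped H3K4me3 and 27.6% held 3 or more islands.

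**Figure D2:**
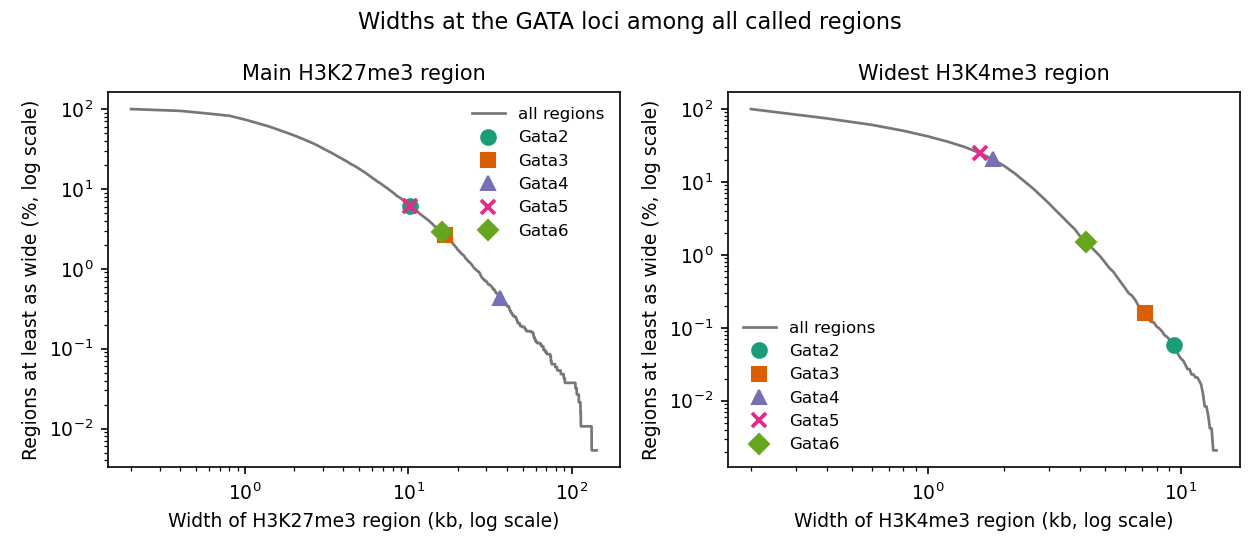
Percentage of all called regions at least as wide as a given width (both axes logarithmic), for H3K27me3 on the left and H3K4me3 on the right, with the main H3K27me3 region and the widest H3K4me3 region of each GATA locus as symbols. Gata4 is farthest out for H3K27me3 and Gata2 for H3K4me3. Each symbol is the widest region of its window set against all regions, which favours a low percentage where a window held several.

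Gata2, a regulator of blood stem and progenitor cells, had the most H3K4me3 and the least H3K27me3 of the 5 loci. Its single H3K27me3 region ran from 88140401 to 88150600 on chromosome 6. Its 6 H3K4me3 regions measured 0.2, 2.2, 1.4, 9.4, 1.0 and 1.4 kb from low to high coordinates. The first of these and the last pair carried no H3K27me3, lying 2.6, 9.2 and 14.8 kb from it. The 2.2-kb region crossed the low-coordinate edge of the H3K27me3 region and the 1.4-kb region lay inside it. The 9.4-kb region (88146201 to 88155600) began inside and ran on beyond the high-coordinate edge, so that 4.4 kb of it carried both marks and 5.0 kb H3K4me3 alone. Both marks together covered 66.7% of the main H3K27me3 region, the highest share of the 5 genes. Of the 790 H3K27me3 regions within 20% of its width, 8.61% held 3 or more islands. Of those 790 that had any H3K4me3, 0.386% were shared to the same extent or more, and their median was 16.7%. With overlap counted only where it reached 50% of the shorter region, the count of islands at Gata2 was 1 in place of 3 and its class changed to wide with 1 to 2 islands, since its 2.2-kb and 9.4-kb regions shared 45.5% and 46.8% of their own widths.

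Gata3, needed for T cell development and for kidney and ear formation, was the only locus of the 5 with H3K27me3 split around an H3K4me3 region. Its H3K27me3 regions ran on chromosome 2 from 9794401 to 9800200 (5.8 kb) and from 9802601 to 9819400 (16.8 kb). A 7.2-kb H3K4me3 region (9798401 to 9805600) joined them, overlapping the first by 1.8 kb and the second by 3.0 kb, and it covered the whole gap of 2.4 kb between them. Of the 1499 gaps of 2 to 3 kb between neighbouring H3K27me3 regions, 18 (1.20%) were wholly covered by H3K4me3. This range was set around the gap of Gata3, which is among the 18. Another 5 H3K4me3 regions of 0.6, 0.6, 1.2, 0.2 and 0.4 kb lay wholly inside H3K27me3. A single 200-bp H3K4me3 region, 9.4 kb away, carried H3K4me3 alone. The main region held 5 islands, and 7.13% of the 407 H3K27me3 regions within 20% of its width held as many. Without regions of 400 bp or less, and also with regions less than 1 kb apart joined, the count was 3.

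Gata4, a regulator of heart and gonadal somatic cells, had the widest H3K27me3 and sparse H3K4me3. Its main region (chromosome 14, 63856801 to 63893200) was 36.4 kb wide, and 81 of all H3K27me3 regions (0.432%), itself included, were as wide or wider. This main region was picked as the widest of its window and ranked against all regions, which favours a low percentage. Its islands of 1.0, 1.8 and 1.0 kb lay in the low-coordinate part, with centres at 7.97%, 20.1% and 49.7% of its width, so that the last 17.8 kb carried H3K27me3 alone. Both marks covered 10.4% of it. Among the 87 regions within 20% of its width the median number of islands was also 3. A 6.2-kb and a 3.2-kb H3K27me3 region flanked it at 1.8 and 2.0 kb, and neither carried H3K4me3. A further 2.4-kb region lay lower in the window, also without H3K4me3. A 1.0-kb H3K4me3 region (63812201 to 63813200) far from the main region overlapped a 200-bp H3K27me3 region, and was not assigned to a gene. In the order of RefSeq genes on GRCm38, Neil2 and Blk are the protein-coding neighbours of Gata4.

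Gata5, a factor of the endocardium and of gut epithelium, had a single H3K4me3 region. It measured 1.6 kb (chromosome 2, 180068401 to 180070000) and lay inside the 10.2-kb H3K27me3 region (180064801 to 180075000), 3.6 kb from one edge and 5.0 kb from the other. Both marks covered 15.7% of the main region, close to the median of 16.7% for regions within 20% of its width that had any H3K4me3. Of the 790 regions of that width, 65.6% held at least 1 island. The other H3K27me3 regions of the window, of 2.6, 0.8 and 3.8 kb, carried no H3K4me3. The last of these followed the main region after a gap of 0.6 kb, and with regions less than 1 kb apart joined the main region measured 14.6 kb. Gata2 and Gata5 therefore had H3K27me3 regions of equal width with 6.8 and 1.6 kb of shared sequence.

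Gata6, a factor of primitive endoderm, heart and lung, had all its H3K4me3 enclosed. Its main H3K27me3 region ran on chromosome 18 from 11045601 to 11061600. The 4 islands measured 1.0, 0.4, 4.2 and 0.6 kb. The 4.2-kb island (11051401 to 11055600) had its centre at 49.4% of the width of the H3K27me3 region, and 1.51% of all H3K4me3 regions were as wide. That island was picked as the widest of the 4 and ranked against all regions, which favours a low percentage. For the islands of 1.0, 0.4 and 0.6 kb the percentages were 42.2%, 74.3% and 60.8%. Both marks covered 38.8% of the main region. Of the 447 H3K27me3 regions within 20% of its width, 12.5% held 4 or more islands. A second H3K27me3 region of 1.0 kb, 0.8 kb further on, carried no H3K4me3. The count of islands at Gata6 was 3 without regions of 400 bp or less. It was also 3 with regions less than 1 kb apart joined, where the main region measured 17.8 kb.

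**Figure D3:**
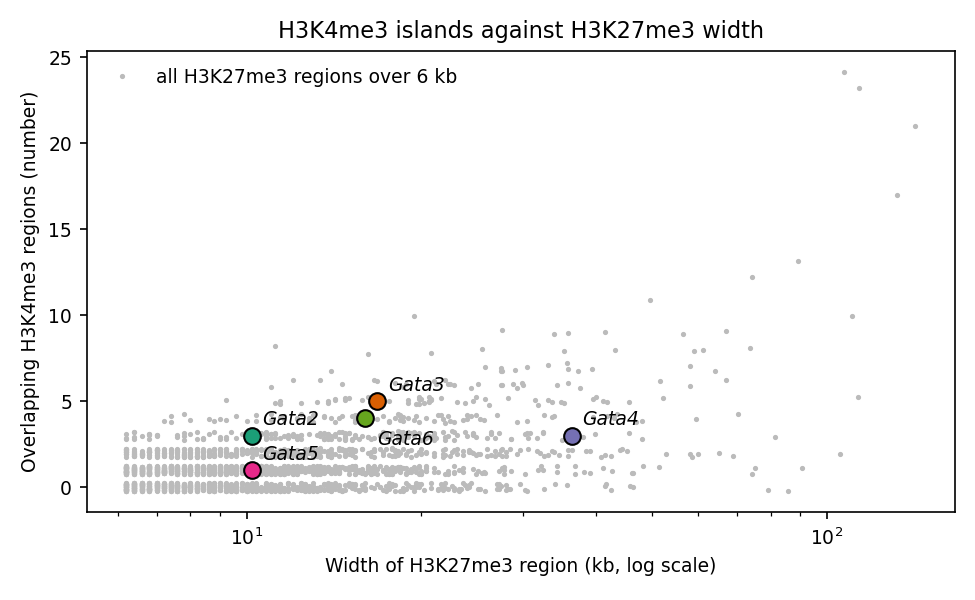
Number of overlapping H3K4me3 regions against the width of the H3K27me3 region in kb (log scale), for all 2450 regions over 6 kb in grey, moved up or down at random by at most 0.25 for visibility, and the 5 GATA loci in colour. Gata2 and Gata5 share a width of 10.2 kb and differ in islands (3 and 1), and Gata4, at 36.4 kb, has no more islands than Gata2.

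Gata2 and Gata3 had the widest H3K4me3 regions of the 5 genes, with Gata6 between them and Gata4 and Gata5. The widest H3K4me3 region was 9.4 kb at Gata2, 7.2 kb at Gata3, 4.2 kb at Gata6, 1.8 kb at Gata4 and 1.6 kb at Gata5. Among all H3K4me3 regions, 28 (0.0584%) were as wide as the one at Gata2, and 2 of those 28 overlapped H3K27me3, that of Gata2 among them. The region at Gata2 was picked as the widest of its window and ranked against all regions, which favours a low percentage. Of the 76 regions of 7.2 kb or more, 7 (9.21%, Wilson interval 4.53 to 17.8%) overlapped H3K27me3, and Gata2 and Gata3 were 2 of the 7. The bound of 7.2 kb is the width at Gata3 and was set with that value known. Both of these regions were shared only in part with H3K27me3, by 46.8% at Gata2 and 66.7% at Gata3, while the widest H3K4me3 regions of Gata4, Gata5 and Gata6 were shared in full. With 2 genes of one branch and 3 of the other, chosen with earlier results known, differences between the branches were not tested.

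The length covered by both marks also differed between the loci. It was 6.8 kb at Gata2, 7.8 kb at Gata3, 4.0 kb at Gata4, 1.6 kb at Gata5 and 6.2 kb at Gata6, 26.4 kb in all. The longest single segment under both marks measured 4.4 kb at Gata2, 4.2 kb at Gata6, 3.0 kb at Gata3, 1.8 kb at Gata4 and 1.6 kb at Gata5. Of the 9132 such segments in the genome, 0.471% were as long as that of Gata2, 0.537% as long as that of Gata6 and 2.72% as long as that of Gata3. The values of Gata4 and Gata5 were less extreme, with 14.9% and 19.7% of segments as long or longer. Each value is the longest of its window ranked against all single segments. That choice favours a low percentage where a window held several segments. H3K4me3 alone covered 8.8 kb at Gata2, 2.6 kb at Gata3 and 0.8 kb at Gata4, and none at Gata5 or Gata6. H3K27me3 alone covered 3.4 kb at Gata2, 14.8 kb at Gata3, 44.4 kb at Gata4, 15.8 kb at Gata5 and 10.8 kb at Gata6. Covered lengths were not scaled to the windows, which spanned 40, 60, 100, 30 and 60 kb in the same order. As a share of the window, H3K27me3 with or without H3K4me3 was highest at Gata5 (58.0%), ahead of Gata4 (48.4%). Gata2 was the one locus with more H3K4me3 (15.6 kb) than H3K27me3 (10.2 kb).

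**Figure D4:**
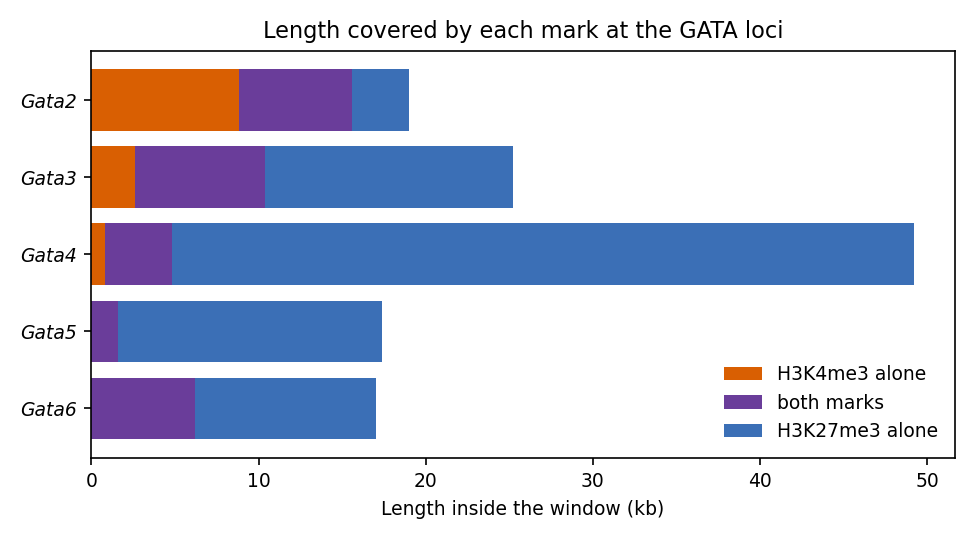
Length in kb inside each GATA window covered by H3K4me3 alone, by both marks and by H3K27me3 alone, as stacked bars. The orange part is largest at Gata2 (8.8 kb) and the blue part at Gata4 (44.4 kb), whose window of 100 kb was the widest. Lengths are not scaled to the width of the window.

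Set beside other stretches of the autosomes, the shared length was high at Gata2, Gata3 and Gata6 and less so at Gata4 and Gata5. The autosomes were divided into adjoining windows of the width used for each gene. The marks overlapped in 9.06% of windows of 40 kb (the width used for Gata2), 12.5% of windows of 60 kb (Gata3 and Gata6), 18.4% of windows of 100 kb (Gata4) and 7.23% of windows of 30 kb (Gata5). As much shared length as at the gene was found in 0.115% of windows for Gata2, 0.117% for Gata3, 0.313% for Gata6, 2.00% for Gata4 and 2.41% for Gata5. Among windows holding any H3K4me3 these percentages were 0.317%, 0.265%, 0.712%, 3.69% and 7.77%. Such windows start at arbitrary points, whereas the GATA windows enclose a gene, so the percentages place the loci and do not test them.

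The surroundings of the loci differed too. In the 250 kb on each side of the window, H3K27me3 was limited to 1 region of 0.6 kb at Gata2 and 1 region of 1.8 kb at Gata6 (0.360% of the sequence), and none was called at Gata3. All 3 lay below the 2.50% of all autosomes. At Gata3 the nearest H3K27me3 regions outside the window lay 469.4 kb and 2961.6 kb away. Around Gata4 the coverage was 4.60%, and the nearest region, 2.0 kb wide, began 1.4 kb past the window. Around Gata5 it was 28.3%, in 28 regions of which 6 were over 6 kb, the widest measuring 58.0 kb, and the nearest began 3.4 kb from the window. H3K4me3 covered 4.32%, 1.36%, 5.04%, 5.52% and 0.440% of the same flanks of Gata2, Gata3, Gata4, Gata5 and Gata6, against 1.97% of all autosomes. The H3K27me3 of Gata2, Gata3 and Gata6 thus stood nearly alone within this distance, while Gata5 lay in a stretch rich in H3K27me3 both outside its window and inside it (58.0%).

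**Figure D5:**
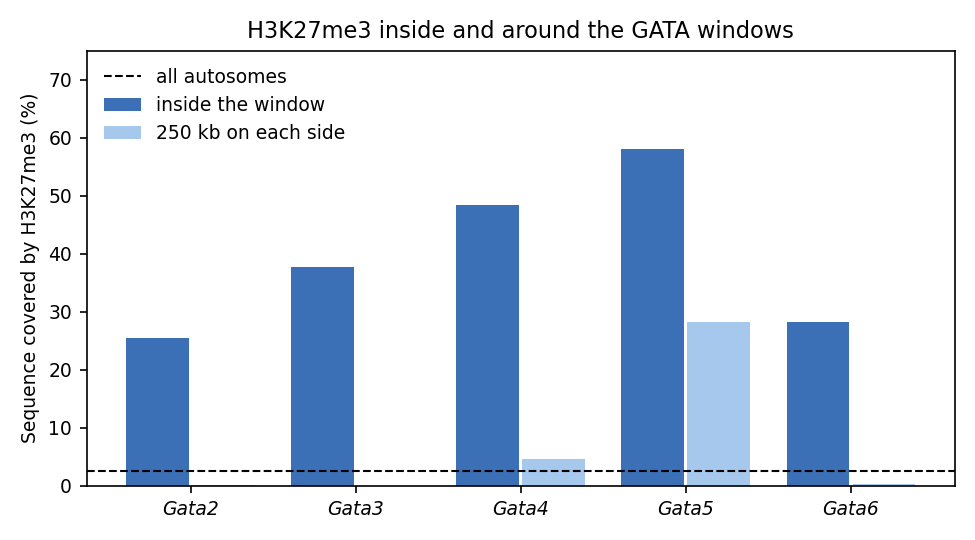
Percentage of sequence covered by H3K27me3 inside each GATA window (dark bars) and in the 250 kb on each side of it (light bars), with the value of all autosomes as a dashed line. The light bars of Gata2, Gata3 and Gata6 are at or near 0 and that of Gata5 reaches 28.3%.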

How the data were processed

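Reads were handled with Bowtie 0.12.7 on build mm9, per the submitters' processing notes. For each mark the authors deposited 1 list of contiguous ChromHMM regions, as the files are named, with 4 columns (chromosome, start, end and name) and no count, score or p-value. ChromHMM is a hidden Markov model that labels successive bins with chromatin states. Its settings, any use of the input and the merging of the 2 replicates are not given in the sources used for this work.

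Regions meeting the window of a gene by 1 bp or more were taken whole. Positions fell on a 200-bp grid and are printed counting from 1. H3K27me3 regions were classed as narrow (under 1 kb), focal (1 to 6 kb) or wide (over 6 kb) and by their H3K4me3 regions (none, 1 to 2, 3 or more). All 5 genes were named whatever their values. The genes, windows and classes were chosen with earlier results of these data known. The windows come from the selection rule and not from an annotation, so no region was placed on an exon, intron or promoter. GATA partner genes and cell type markers needed an mm9 annotation and were not analysed here. Percentages of regions are over the whole lists, with 95% Wilson intervals that treat regions as independent. No test was made, since each mark has 1 list. Sequences and gene names come from RefSeq tables of GRCm38.p6, in which 3 of the 5 genes had a promoter entry and all 5 a name. The overlap code was tested on simulated data. Software was Python 3.11.15 with matplotlib 3.10.9, pandas 2.3.3, numpy 2.4.6 and scipy 1.17.1.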

Additional observations from a re-analysis of the deposited data

How the results depend on the processing

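The 6 alternatives dropped regions of 400 bp or less, joined neighbours of 1 mark across gaps under 1 kb, required 400 bp or 50% of the shorter region for an overlap, widened the windows by 50 kb on each side, or clipped regions to the window. Of 90 values computed in this way for 15 results, 85 stayed within 1.5 times the reported value and 5 moved further. Many of the 85 could not have moved, so this tally does not measure robustness. Every region lay inside its window, so clipping changed nothing. The main region was always taken from the original window, so widening could not alter its width, islands or class. The overlap thresholds could not alter the counts of regions in the windows. Windows widened by 50 kb held 29 H3K27me3 and 38 H3K4me3 regions in place of 14 and 22, because more sequence enters by construction, and 20 of the 38 (52.6%) overlapped H3K27me3. Under the other alternatives that share was 68.2 to 82.4%, against 81.8% as reported. The other 3 were counts of islands at Gata2 (1 with the 50% overlap) and Gata3 (3 without narrow regions and 3 with regions joined). All 5 loci kept overlapping marks under the 6 alternatives, and the class with 3 or more islands held 4 loci under all but the 50% overlap, which left 3. No paired analysis was possible because each mark has 1 list, and for the same reason no replicate was left out. The lists hold no read counts, so how depth limited the calling of regions at these loci is unknown.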
